A study of Saccharomyces cerevisiae with 56 samples.

Results

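The segments described here are pieces of nuclear DNA that were copied from inside protein-coding genes and found inserted at a single chromosome break in yeast. A listed segment was counted when it was the only donor of its insertion and lay on one of the 16 nuclear chromosomes, with its midpoint in a protein-coding gene of the R64 annotation. It also had to lie over 20 kb from the chromosome ends and over 1 kb from tRNA genes, while Ty elements (with 400 bp on each side), the rDNA on chromosome XII and the mating-type cassettes did not count. By this rule 498 of 1436 segments lay inside genes. Another 207 lay between genes in the same parts of the chromosomes, and the others came from Ty elements (284), chromosome ends (118), rDNA (111), the surroundings of tRNA genes (78), the cassettes (74) and mitochondrial or other DNA (66). The right end of a chromosome was taken as the largest annotated or donor position, so distances to right ends are lower limits. Measured so, the member nearest to an end was a segment of FLO1 in rtt105, at 20506 bp from the right end of chromosome I, and the nearest segment left out lay at 19935 bp. From left ends, which start at position 1, the nearest member was a segment of EFM1 in rtt105 rad27 at 22254 bp. For tRNA genes the corresponding distances were 1011 bp, for MET17 in rtt105, and 985 bp.

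*Break-Ins* is an amplicon sequencing method that reads across the MATa locus in pooled survivors of a break made by the HO endonuclease. All strains are haploid derivatives of JKM139. They carry MATa, hml::ADE1 and hmr::ADE1 in place of the silent cassettes, the markers ade1, leu2-3,112, lys5, trp1::hisG and ura3-52, and a galactose-driven HO gene at ade3. Lists were used for 16 genotypes: deletions of RAD27 (14 libraries), RTT105 (8), EXO1, LIG4, MRE11, POL32, RAD30, REV3 and SGS1 (2 each), the point mutants rfa1-t33, labelled RFA1-t33 (3), and mre11-H125N (2), and the combinations sgs1 exo1 (4), rtt105 rad27 (3), rad27 RFA1-t33 (2), rtt105 tel1 (2) and rtt105 rad1 (2). Each genotype is represented by 1 strain. Cells were plated on galactose and grown for 5 days at 30C, except that 3 rad27 libraries are labelled 23C and 3 are labelled 37C. The labels do not say whether the pooled rad27 list holds the insertions of the 37C libraries. The authors' colony count for rad27 equals that of the 23C and 30C libraries, so it leaves the 37C libraries out. Lists of the wild type were not used here, and mre11-H125N, which lacks the Mre11 nuclease activity, served as the reference. The labels give 14976 (rad27 RFA1-t33) to 820032 (rad27) colonies per genotype, and 672 to 140000 per library. The 2 libraries of rad27 RFA1-t33 hold 672 and 14304 colonies. Each list pools the libraries of its genotype and gives no read count, so the depth and the spread between libraries are unknown. Every interval and p-value below therefore covers counting error only, and not differences between libraries, strains or runs. Apart from 1 run that holds both rad27 and rtt105, the large lists came from separate sequencing runs, so run and genotype cannot be told apart in most comparisons.

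RAD27 encodes the flap endonuclease that removes the displaced 5′ ends of Okazaki fragments, and RFA1 encodes the large subunit of RPA, the complex that coats single-stranded DNA. Rtt105 carries RPA into the nucleus and helps it to bind DNA. Sgs1 and Exo1 take part in separate routes of long-range resection of broken ends. In the compact yeast genome genes lie close together on both strands, named W for the Watson and C for the Crick strand, and introns are few. A gene here runs from its start codon to its stop codon with any intron included. A segment on the coding strand is listed on the same strand as the gene's mRNA sequence. The lists do not say how the strand was set, and the files used here hold no sequence of the segments.

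In-gene segments were found in 9 of 16 genotypes and were most frequent where loss of RAD27 was combined with rfa1-t33 or with loss of RTT105. Frequencies are given per 10000 colonies with exact 95% intervals. The colonies were not normalized for cutting by HO, as the authors' counts of break repair products are. The part of the colonies that remains after that step differs between genotypes. In rad27 RFA1-t33, 35 segments gave 23.4 (16.3 to 32.5). In rtt105 rad27, 139 segments gave 12.4 (10.4 to 14.7). The single mutants rtt105 (133 segments, 3.55, 2.98 to 4.21), RFA1-t33 (13 segments, 2.44, 1.30 to 4.18) and rad27 (151 segments, 1.84, 1.56 to 2.16) lay lower, and their intervals did not reach that of either combination. The rad27 value rests on the colonies of all 14 libraries. Without those labelled 37C, which the authors' colony count for rad27 also leaves out, it would be 2.51. In sgs1 exo1, 17 segments gave 3.09 (1.80 to 4.95). Few were listed in sgs1 (5 segments, 0.471), rtt105 tel1 (3 segments, 0.378) and rtt105 rad1 (2 segments, 0.683).

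**Figure D1:**
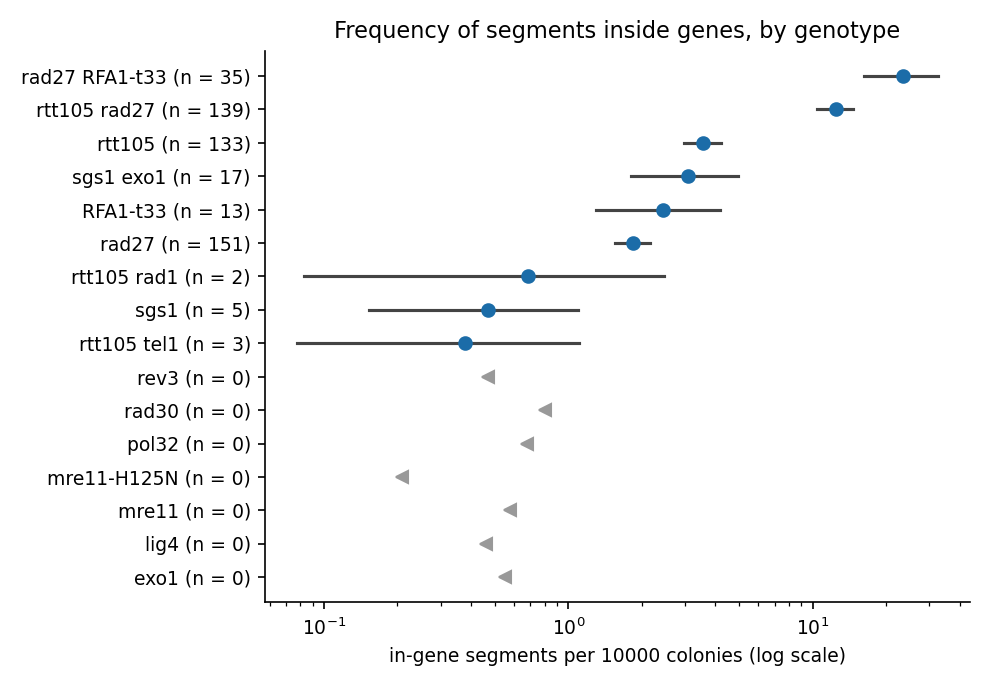
In-gene segments per 10000 colonies (log scale) in 16 genotypes. Points are frequencies, lines exact 95% binomial intervals, and grey arrowheads the frequency of 3 counts where no segment was listed. The combinations rad27 RFA1-t33 (23.4) and rtt105 rad27 (12.4) stand above the other genotypes.

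In the reference strain mre11-H125N no in-gene segment was listed among 144320 colonies. There 3 counts would be 0.208 per 10000 colonies, and the exact 95% interval of a count of 0 reaches 0.256. Allowing for the counting error of both strains, the exact 95% interval of the ratio to mre11-H125N had a lower limit of 86.7 in rad27 RFA1-t33, 48.0 in rtt105 rad27, 13.7 in rtt105, 10.8 in sgs1 exo1, 8.27 in RFA1-t33, 7.12 in rad27 and 1.25 in sgs1, and no upper limit. The two-sided Fisher's exact test, adjusted by Benjamini-Hochberg over 15 genotypes, gave adjusted p between 1.34e-49 (rtt105 rad27) and 0.0292 (sgs1) for these 7 genotypes. It gave 0.0533 for rtt105 rad1 and 0.0744 for rtt105 tel1. The lists of exo1, lig4, mre11, pol32, rad30 and rev3 held none. With 37296 to 65280 colonies each, a count of 0 allows up to 0.460 (lig4) to 0.804 (rad30) per 10000 colonies (3 counts). A frequency like that of rtt105 tel1 was thus not detectable in any of them. In lig4 and mre11 the authors count far fewer break repair products than colonies. Per repair product their counts of 0 allow much higher frequencies, so these limits hold for colonies only.

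Among the mutants, rtt105 rad27 had 6.75 times the frequency of rad27 (95% interval 5.32 to 8.56, adjusted p = 3.10e-50 over 9 pairs, Fisher's exact test) and 3.50 times that of rtt105 (2.74 to 4.47, adjusted p = 3.34e-23). The ratio of rad27 RFA1-t33 was 12.7 to rad27 (8.52 to 18.4, adjusted p = 2.00e-24) and 9.56 to RFA1-t33 (4.94 to 19.7, adjusted p = 1.73e-13). The sgs1 exo1 strain had 6.56 times the frequency of sgs1 (2.32 to 22.7, adjusted p = 5.67e-05). Among the single mutants, rtt105 had 1.93 times the frequency of rad27 (1.52 to 2.45, adjusted p = 8.73e-08), and the comparison of RFA1-t33 with rtt105 did not pass the test (ratio 0.688, 0.357 to 1.22, adjusted p = 0.257). Without the colonies labelled 37C the ratios to rad27 were 4.94 for rtt105 rad27 (adjusted p = 8.17e-37), 9.30 for rad27 RFA1-t33 (adjusted p = 2.20e-20) and 1.41 for rtt105 (adjusted p = 0.00493). Per break repair product as counted by the authors, the ratios of rtt105 rad27 and rad27 RFA1-t33 to their single mutants would be smaller. Such ratios were not tested. Against rtt105, the frequency was lower in rtt105 tel1 (ratio 0.106, 0.0217 to 0.318, adjusted p = 7.84e-08), where the Tel1 checkpoint kinase is missing too, and in rtt105 rad1 (ratio 0.192, 0.0230 to 0.708, adjusted p = 0.00493), which also lacks a subunit of the Rad1-Rad10 flap nuclease. The lists of these last combinations are attached to the first of their libraries only. With the colonies of that library alone the ratio of rtt105 rad1 to rtt105 was 0.388 (adjusted p = 0.257), while that of rtt105 tel1 kept its call.

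Segments inside genes made up 70.6% of the 705 segments in and between genes (95% interval 67.1 to 74.0), while genes covered 75.8% of the bases in which a midpoint could lie. The share was 74.0% in rad27 (151 of 204), 70.6% in rtt105 rad27 (139 of 197), 68.6% in rtt105 (133 of 194) and 35 of 50 segments in rad27 RFA1-t33. None of the 4 pairs of genotypes passed the test, and the interval of the difference between rtt105 and rad27 ran from -14.3 to 3.41 percentage points (adjusted p = 0.810). These p-values were adjusted over all 28 tests of shares, which also hold the tests of strand, position, gene length and segment length below. Where the whole segment had to lie inside the gene, rtt105 fell below rad27 by 13.9 percentage points (adjusted p = 0.0282). That rule counts a segment across a gene border as between genes, which longer segments meet more often. The median length was 158 bp in rtt105 and 61.0 bp in rad27, and a difference apart from length was not tested. Of the 498 segments 450 lay wholly inside their gene (90.4%), 25 ran past the start codon and 24 past the stop codon, 1 of them past both. In rtt105, 108 of 133 (81.2%) lay wholly inside, against 142 of 151 in rad27 (94.0%), 131 of 139 in rtt105 rad27 (94.2%) and 33 of 35 in rad27 RFA1-t33 (94.3%).

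More segments lay on the coding strand of their gene than on the opposite strand, and this was so in each of the 4 genotypes with at least 20 members. Over all genotypes 310 of 498 segments were on the coding strand, which is 62.2% (57.8 to 66.5). The share was 64.2% in rad27 (97 of 151, 56.0 to 71.9), 63.9% in rtt105 (85 of 133, 55.1 to 72.1), 61.2% in rtt105 rad27 (85 of 139, 52.5 to 69.3) and 57.1% in rad27 RFA1-t33 (20 of 35, 39.4 to 73.7). The intervals of the first 3 lay above 50%, and that of rad27 RFA1-t33 included it. In smaller lists it was 10 of 13 in RFA1-t33, 9 of 17 in sgs1 exo1, 2 of 5 in sgs1, 1 of 3 in rtt105 tel1 and 1 of 2 in rtt105 rad1. No difference between genotypes passed the test in the 4 pairs (adjusted p from 0.865 to 1.00), and the difference between rtt105 and rad27 was -0.33 percentage points (-11.4 to 10.7).

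**Figure D2:**
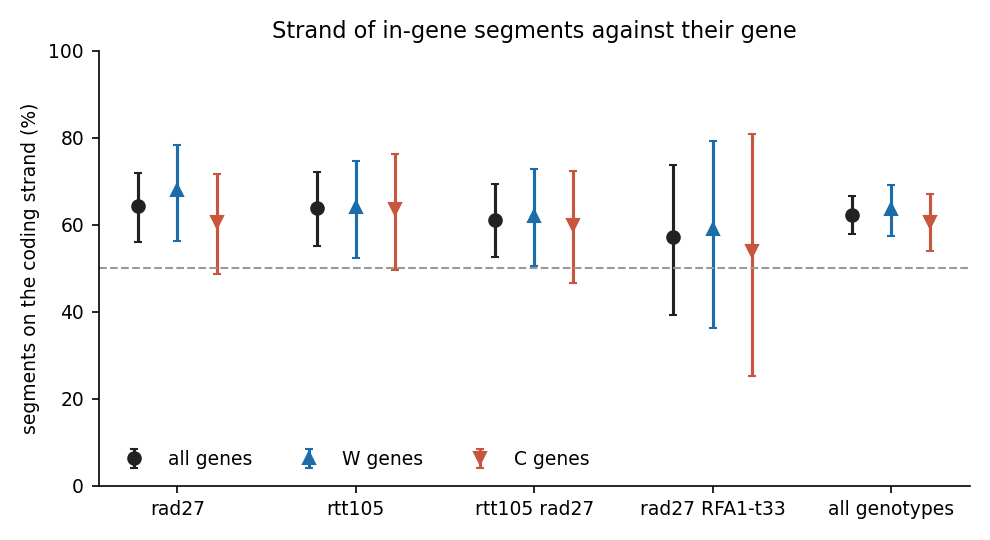
Share of in-gene segments on the coding strand (percent) in 4 genotypes and over all genotypes, for all genes (circles) and for genes of the Watson (W) and Crick (C) strands (triangles), with exact 95% intervals. The dashed line marks 50%. All 15 shares lie above it, from 53.8% to 68.0%, and 9 of the intervals exclude it.

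The same direction was seen in genes of both chromosome strands. In W genes 174 of 274 segments were on the coding strand (63.5%, 57.5 to 69.2), and in C genes 136 of 224 (60.7%, 54.0 to 67.2). The chromosome strands themselves were used about evenly, with 52.6% of the segments inside genes (48.1 to 57.1) and 51.7% of those between genes (44.7 to 58.7) on the plus strand. The share on the coding strand was 63.8% before the middle of the gene and 60.8% after it, 63.9% of segments shorter than 100 bp and 59.2% of longer ones, and 62.2% of segments wholly inside the gene. Of the 207 segments between genes, 120 were on the strand of the nearest gene (58.0%, 50.9 to 64.8), which lay at a median of 126 bp from the midpoint. W genes held 55.0% of the in-gene segments (50.5 to 59.4) and 50.4% of the coding bases.

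Along the gene, segments were spread from the start to the stop codon. Of all segments 235 of 498 had their midpoint before the middle of the gene (47.2%, 42.7 to 51.7), and the shares of the 5 successive stretches of 20% were 22.9%, 17.1%, 17.3%, 21.3% and 21.5%. The share before the middle was 47.7% in rad27 (72 of 151), 45.9% in rtt105 (61 of 133), 43.2% in rtt105 rad27 (60 of 139) and 51.4% in rad27 RFA1-t33 (18 of 35), and no pair of genotypes passed the test (adjusted p from 0.865 to 0.909). In rad27 41 of 97 coding-strand segments (42.3%) and 31 of 54 opposite-strand segments (57.4%) lay before the middle, a difference of -15.1 percentage points (-30.6 to 1.42) that did not pass the test (adjusted p = 0.503). In rtt105 and rtt105 rad27 the difference had the other sign (9.83 and 6.99 percentage points) and did not pass either. In sgs1 all 5 segments lay before the middle of their genes.

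**Figure D3:**
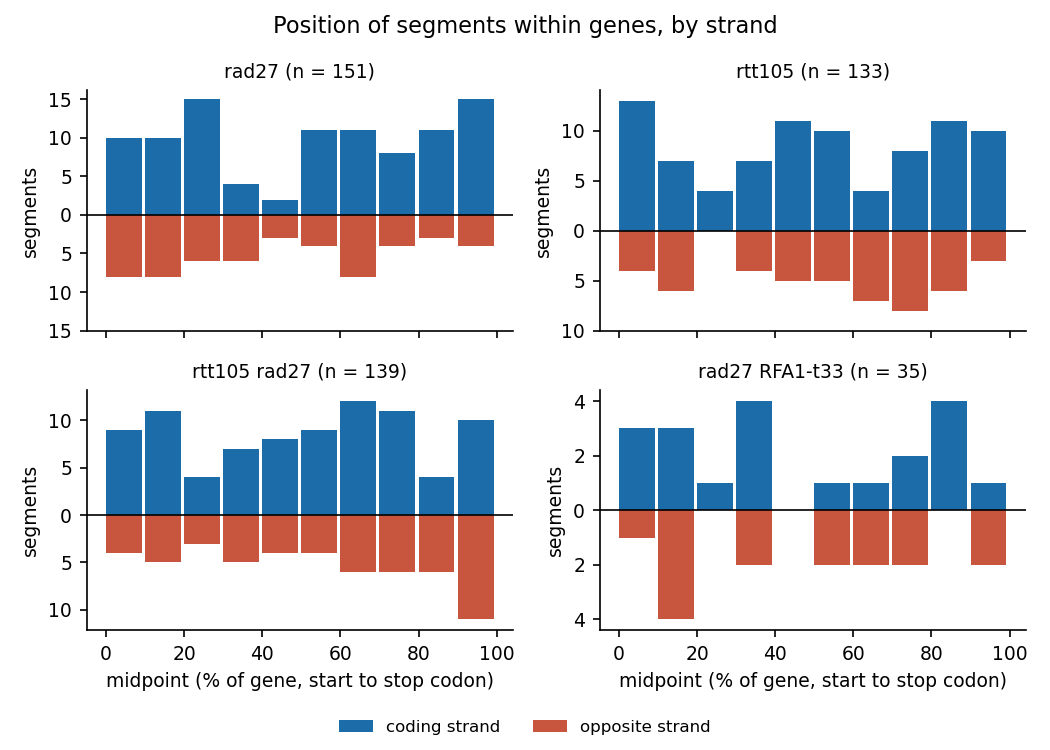
Number of segments by position of the midpoint in the gene (percent from start to stop codon, in steps of 10%) in 4 genotypes. Blue bars above the line count segments on the coding strand, and red bars below it those on the opposite strand. In rad27 the stretches hold 5 (from 40% to 50%) to 21 segments (from 20% to 30%), and in rtt105 4 (from 20% to 30%) to 17.

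The genes hit ranged from 120 bp (YBL100W-C, in rtt105) to 9807 bp (TOM1, a ubiquitin ligase, in rtt105 rad27). Their median length was 1665 bp, against 1218 bp over all genes in which a midpoint could lie. A longer gene offers more bases, so the share in genes longer than 1893 bp was compared, since 50% of the coding bases lie in genes up to that length. It was 44.4% of all segments (221 of 498, 39.96 to 48.9), 48.2% in rtt105 rad27, 45.0% in rad27, 44.4% in rtt105 and 37.1% in rad27 RFA1-t33. No pair of genotypes passed the test (adjusted p from 0.865 to 1.00). The number of segments per 100 kb of coding bases was 6.20 over all chromosomes, and it ranged from 4.82 on chromosomes II and III to 10.4 on VI (16 segments) and 11.7 on I (15 segments), the chromosomes with the fewest eligible coding bases.

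Segment length separated the genotypes. The median was 61.0 bp in rad27 (25 to 122 bp), 66.0 bp in rtt105 rad27 (35 to 284 bp), 103 bp in rad27 RFA1-t33 (48 to 270 bp), 133 bp in sgs1 exo1 (67 to 398 bp) and 158 bp in rtt105 (49 to 445 bp). In RFA1-t33 the quartiles were 109 and 160 bp (62 to 433 bp). The shortest was a piece of TRK2, which encodes a potassium transporter, in rad27, and the longest a piece of GYP5, which encodes a GTPase activator of Rab proteins, in rtt105. Segments shorter than 100 bp made up 148 of 151 in rad27 (98.0%), 120 of 139 in rtt105 rad27 (86.3%), 12 of 35 in rad27 RFA1-t33 (34.3%) and 31 of 133 in rtt105 (23.3%). All 4 pairs tested differed. The share in rtt105 minus that in rad27 was -74.7 percentage points (-81.2 to -66.0, adjusted p = 3.37e-43), and the share in rad27 RFA1-t33 minus that in rad27 was -63.7 points (-77.2 to -46.8, adjusted p = 1.10e-16). The share in rtt105 rad27 lay between those of its single mutants, with differences of -11.7 points to rad27 (-18.5 to -5.67, adjusted p = 0.00142) and 63.0 points to rtt105 (52.7 to 71.0, adjusted p = 5.77e-26). With 60 bp as the limit the difference to rad27 was -13.8 points (adjusted p = 0.163). In the run that rad27 and rtt105 share, the 4 rad27 segments measured 49 to 72 bp and the 8 rtt105 segments 72 to 371 bp, with medians of 66.5 and 248 bp.

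**Figure D4:**
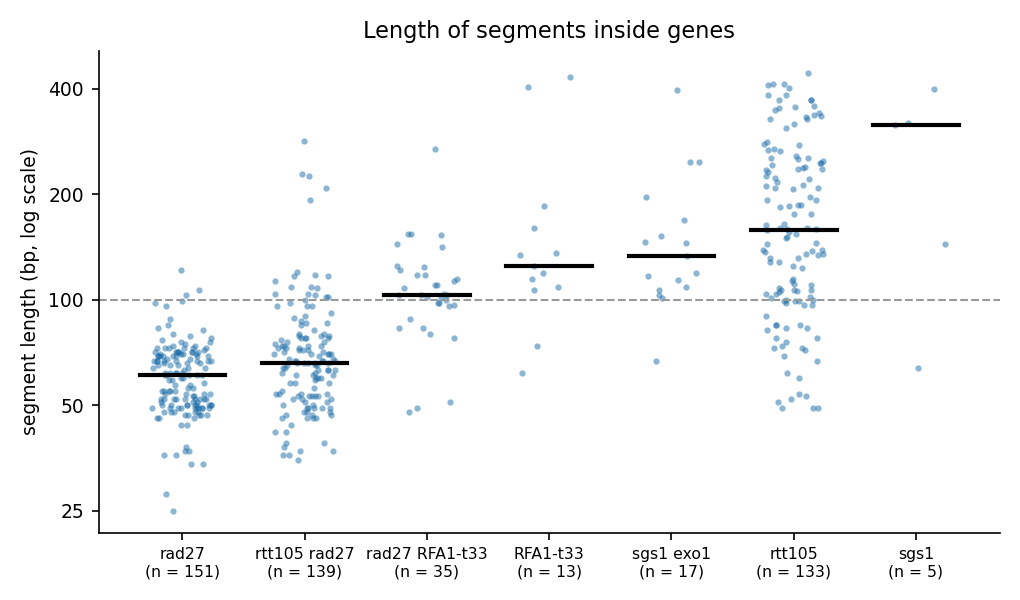
Length of each in-gene segment (bp, log scale) in the 7 genotypes with at least 5 of them. Black bars are medians and the dashed line marks 100 bp. Nearly all rad27 segments (148 of 151) lie under the line, and 102 of 133 rtt105 segments lie on or above it.

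Within a genotype, no difference in the share under 100 bp was found between segments inside genes and those between genes. The shares were 98.0% and 94.3% in rad27 (difference 3.67 points, -1.56 to 13.5) and 86.3% and 86.2% in rtt105 rad27 (difference 0.124 points, -9.30 to 12.2). In rtt105 they were 23.3% and 31.1% (difference -7.84 points, -21.8 to 5.05), and in rad27 RFA1-t33 12 of 35 and 9 of 15 segments (difference -25.7 points, -50.0 to 3.65). None passed the test (adjusted p from 0.572 to 1.00).

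The segments were scattered over many genes. The 498 segments came from 457 genes, which are 8.18% of the 5585 genes in which a midpoint could lie. Of these genes 424 held 1 segment and 33 held more (0.591% of genes), and 27 of the 33 had segments from more than 1 genotype. In rad27 148 genes were hit (2.65% of genes), 3 of them more than once (0.0537%). In rtt105 131 genes were hit (2.35%), 2 of them more than once (0.0358%). In rtt105 rad27 134 genes were hit (2.4%), 4 of them more than once (0.0716%), and in rad27 RFA1-t33 35 genes were hit once each (0.627%). The lists of rad27 and rtt105 had 6 genes in common (4.05% of 148 and 4.58% of 131 genes), those of rad27 and rtt105 rad27 had 7 (4.73% of 148 and 5.22% of 134), and those of rtt105 and rtt105 rad27 had 6 (4.58% and 4.48%). Segments that overlapped in position between genotypes were found in 10 of the 457 genes. Between pairs of the 4 genotypes with at least 20 members, 0.662% to 5.71% of a genotype's segments overlapped a segment of the other.

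YJR115W was the gene hit most often, with 6 segments in 510 bp of coding length. It encodes a protein of unknown function and lies at chrX:639942-640451 (R64). All 6 segments overlapped each other near the start codon. In rtt105 rad27 they were at chrX:639921-640023, chrX:639944-640032 and chrX:639955-640016, in rad27 at chrX:639975-640035 and chrX:640000-640051, and in rtt105 at chrX:639921-640027. Their midpoints lay between 5.98% and 16.4% of the gene, and 5 of 6 were on the coding strand. The second rtt105 rad27 segment was on the opposite strand. The rtt105 segment and the first of rtt105 rad27 began at the same base and ended 4 bp apart, in lists from different sequencing runs, and whether such a pair arose independently was not tested.

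In HRK1, which encodes a protein kinase that activates the plasma membrane proton pump, 3 coding-strand segments lay on top of each other. They were at chrXV:822919-822988 and chrXV:822929-822990 in rad27 and at chrXV:822919-822990 in rtt105 rad27, at 83.7% to 84.0% of the gene. The last and the first shared their lower coordinate and ended 2 bp apart, also in different runs. This pair and the YJR115W pair were the only near-identical segments of different genotypes (both ends within 5 bp) among the 498.

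FLO1 held 3 overlapping segments of different genotypes at 62.3% to 64.03% of the gene, at chrI:206260-206306 in rad27, chrI:206223-206332 in rad27 RFA1-t33 and chrI:206253-206461 in rtt105. It encodes a lectin-like cell wall protein that makes cells stick together. The rad27 RFA1-t33 segment was on the opposite strand and the others on the coding strand. FLO11, a flocculin gene needed for invasive growth, likewise held overlapping coding-strand segments at chrIX:391524-391627 in rad27 RFA1-t33 and chrIX:391469-391661 in rtt105. FLO genes share repeated sequence with each other, so the assignment to a copy is uncertain.

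**Figure D5:**
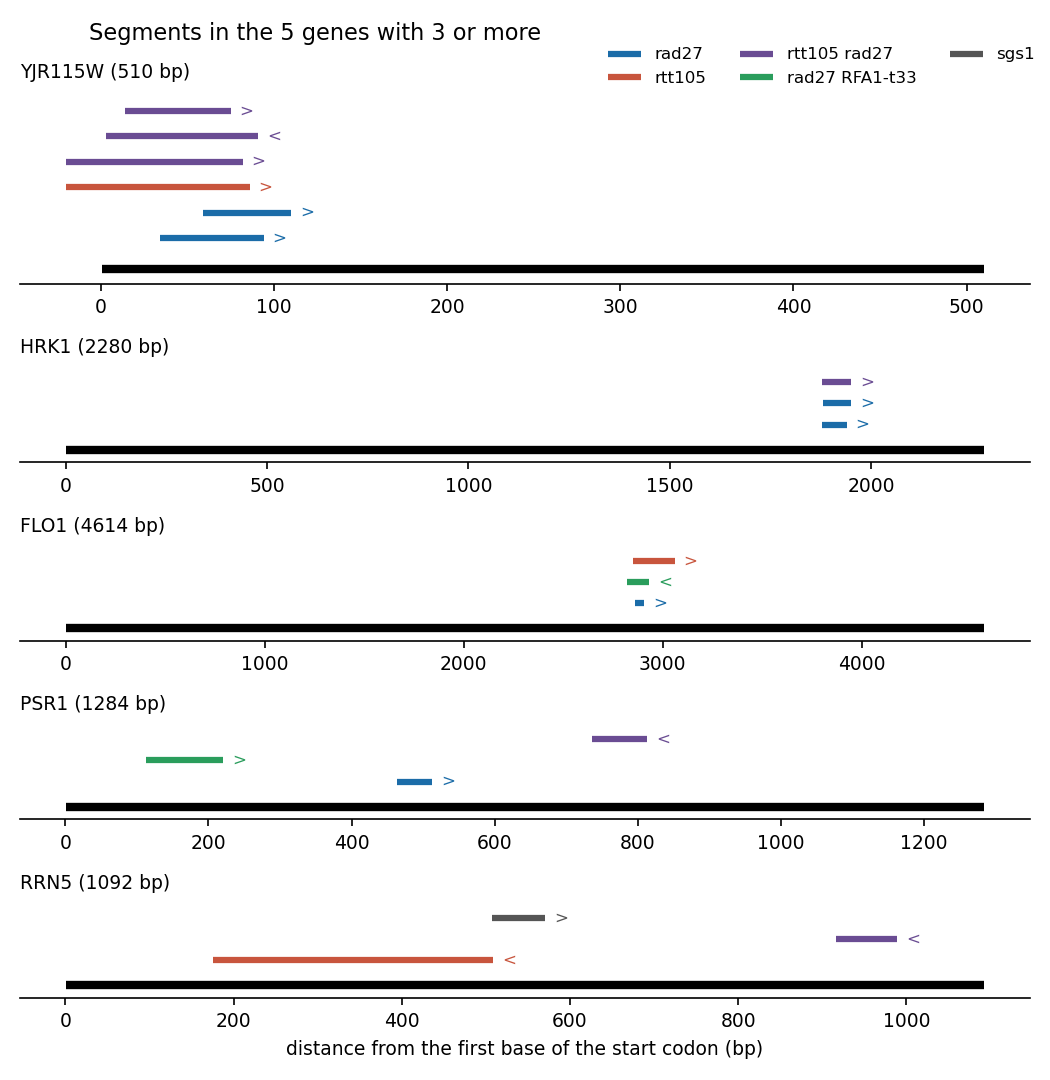
Segments in the 5 genes that held 3 or more. The black bar is the gene, the horizontal axis the distance from the first base of the start codon (bp), and each coloured bar a segment, with its genotype by colour and its strand by the arrow (> coding strand, < opposite strand). The segments overlap in YJR115W, HRK1 and FLO1 and are apart in PSR1.

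PSR1 and RRN5 were also hit 3 times, by segments that lay mostly apart. In PSR1, a phosphatase gene of the salt stress response, the 3 segments came from rad27 (chrXII:130102-130151), rad27 RFA1-t33 (chrXII:130394-130501) and rtt105 rad27 (chrXII:129801-129878), with at least 223 bp between them. In RRN5, whose product belongs to the upstream activation factor of RNA polymerase I, the segments of rtt105 (chrXII:423857-424190) and sgs1 (chrXII:424189-424252) overlapped by 2 bp, and that of rtt105 rad27 (chrXII:424598-424671) lay apart. RRN5 and the neighbouring SLS1 (2 segments) together gave 5 segments from 4 genotypes in the interval 420001 to 430000 of chromosome XII. Of 1214 consecutive windows of 10 kb with fixed borders, 842 held no segment, 274 held 1 and 5 held 4 or more. The 6 segments of YJR115W lie across such a border and count as 4 and 2.

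Overlaps between genotypes in other genes with 2 segments were found in REC114, WWM1, PHO90, GPN2 and MDM34. In REC114, needed for meiotic break formation, rad27 and rtt105 segments overlapped by 49 bp (chrXIII:536863-536918 and chrXIII:536850-536911). In WWM1, whose product has a WW domain, a 48-bp rtt105 rad27 segment (chrVI:115436-115483) lay inside a 270-bp segment of rad27 RFA1-t33 (chrVI:115359-115628). The overlap was 12 bp in PHO90, a phosphate transporter gene, where both segments were on the opposite strand. It was 4 bp in GPN2, which encodes a GTPase, and 3 bp in MDM34, which encodes a protein that tethers mitochondria to the endoplasmic reticulum.

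The genes hit 2 times, and only within 1 genotype, were CYR1 and FLC1 in rtt105, GAT2, RSC2 and YAT1 in rtt105 rad27 and TRM732 in rad27. Of these, the GAT2 segments lay closest to each other, at chrXIII:541394-541463 and chrXIII:541472-541529, both on the coding strand. GAT2 encodes a GATA-type zinc finger protein. The RSC2 and YAT1 segments were also all on the coding strand, 1135 and 224 bp apart. RSC2 encodes a subunit of the RSC chromatin remodeler and YAT1 a carnitine acetyltransferase. In CYR1, the adenylate cyclase gene of 6081 bp, the segments lay 3785 bp apart and on different strands.

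Gene lists were read beside all eligible genes, of which 8.18% held a segment, with 6.19 segments per 100 kb and a median gene length of 1218 bp. Of 27 cell wall and flocculation genes 7 held 11 segments (25.9% of genes, 22.4 per 100 kb). They were FLO1 (3 segments), FLO11 and SED1 (2 each), FLO5, FLO9, MSB2 and YPS1, and 8 of the 11 were on the coding strand. The SED1 segments, in a stress-induced cell wall protein gene, were at chrIV:601427-601490 in rad27 and chrIV:601245-601313 in rtt105 rad27. Of 55 genes listed for long glutamine or asparagine runs in their proteins 12 held 15 segments (21.8% of genes, 12.2 per 100 kb, median gene length 2193 bp), and 11 of the 15 were on the coding strand. The list was made by gene name. For want of sequence it is unknown whether any of these segments covers such a run. GAL11, a Mediator subunit gene, NUP116, a nucleoporin gene, and SNF2, the ATPase gene of SWI/SNF, held 2 each. The SNF2 segments were at chrXV:859522-859577 in rtt105 rad27 and chrXV:859825-860071 in sgs1 exo1. These lists were not tested, and they were chosen with earlier results of these data known.

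In the lists of ribosomal protein, glycolysis, galactose and histone genes, no gene held more than 1 segment, beside 0.591% of all eligible genes. Lists of this size cannot show a difference from so small a share. Transcription of the listed genes was not measured here. Of 137 genes for cytosolic ribosomal proteins, which are short (median 771 bp), 5 held a segment each (3.65% of genes, 4.94 per 100 kb), namely RPL4B, RPL17B and RPS1B in rtt105, RPL19A in rad27 and RPL16A in rad27 RFA1-t33, and 2 of the 5 were on the coding strand. Of 20 glycolysis genes 3 held a segment each (15.0% of genes, 10.5 per 100 kb), 1 of them on the coding strand, namely PFK1 for phosphofructokinase in rad27, CDC19 for pyruvate kinase in rtt105 and PDC5 for pyruvate decarboxylase in rtt105 rad27. None of the 9 eligible genes of the galactose list held a segment, beside 8.18% of all eligible genes. So short a list cannot show a difference from that share. Of 10 histone genes HHT2 and HHF2, a divergent pair for histones H3 and H4, held 1 coding-strand segment each, both in rad27 (47.4 per 100 kb of these short genes). Among the 13 genes mutated in the strains, SGS1, which encodes a RecQ helicase, held a coding-strand segment in rtt105 rad27 (chrXIII:644855-644904), a strain in which it is not deleted.

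The genotypes with few segments drew on genes with various functions. In sgs1 they were YCF1 (a vacuolar transporter, 316 bp, chrIV:726285-726600), MRP13 (a mitochondrial ribosomal protein, 320 bp), ATR1 (a drug efflux pump, 400 bp), GRE1 (a stress-induced protein, 144 bp) and RRN5 (64 bp). In rtt105 tel1 they were GAL83 (a subunit of the Snf1 kinase complex, 51 bp), CAF16 (an ABC ATPase, 134 bp) and SHR5 (a palmitoyltransferase subunit, 82 bp). In rtt105 rad1 they were SPP41 (77 bp) and ADE1 (78 bp, chrI:169818-169895), an enzyme gene of purine synthesis. The strains also carry ADE1 at both silent cassettes, so the copy that gave this segment cannot be told apart.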

How the data were processed

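*Break-Ins* libraries were made by the authors from pooled colonies. Read quality was controlled with BBDuk, insertions of more than 10 bp were found through PEAR and BLASTN, and redundant reads were removed. The deposited lists, of other units than counts, give each donor's position and strand on R64 per the file headers. Each list pools the libraries of a genotype. Read counts, and so the depth per library, are not known from them. Colony numbers came from the labels and were not normalized for cutting by HO.

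Of 30 deposited files 4 were not used. These are the library list, a complex-insertion list without donors and both lists named rtt105RFA1-t33, a genotype of no library. For the libraries of rad27 RFA1-t33 the library list points to these, whereas the lists that carry that genotype's name were used. It names the rev3 list for yku70, which was left without values. All 4 sgs1 exo1 libraries carry the same indices in the labels. Genes came from the RefSeq table of R64, with strand from the systematic name and the right chromosome end set at the largest annotated or donor position. The members and lists were chosen with earlier results of these data known.

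Two-sided Fisher's exact tests compared frequencies and shares. P-values were adjusted by Benjamini-Hochberg over 15 genotypes, over 9 pairs and over 28 shares, with a threshold of 0.05. Shares were tested where both genotypes had at least 20 members. Intervals of single values are exact (95%), those of differences Newcombe's and those of ratios exact conditional. Named genes had at least 3 segments, at least 2 in 1 genotype or overlapping segments of different genotypes, or were members of the lists or of genotypes with few segments. SLS1 and the windows of 10 kb were chosen after their values had been seen. Alternatives were near-identical segments (5 bp) counted once, complex donors added, other margins and thresholds, a chi-square test, other colony numbers and single runs. The colonies of the first library alone were chosen as an alternative after seeing the data. On simulated data, gene, strand and position were recovered for the 297 of 300 planted donors that met the rule, and 4.00% of 200 tests without a difference and 92.5% of 200 tests of 50% against 70% were called with 150 segments a group. Python 3.11.15, SciPy 1.17.1, pandas 2.3.3 and statsmodels 0.14.6 were used.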

Additional observations from a re-analysis of the deposited data

How the results depend on the processing

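No paired analysis was possible because each list pools the libraries of its genotype. For the same reason no library could be left out, and leaving out a run gave no frequency, since colonies are not given per run. The encoded stretches were not examined, for want of sequence. No genotype held near-identical segments, so counting them once within a genotype could change nothing. Adding the donors of complex insertions gave 5 segments in rtt105 tel1 in place of 3, a coding-strand difference between rtt105 and rad27 of 0.289 points in place of -0.33, and 53 genes with several segments in place of 33, where both donors of an insertion can lie in 1 gene. Where such donors lie on opposite strands, they add 1 to each strand whatever the coding-strand share. Without rtt105, 19 genes had several segments. The chi-square test called the unchanged frequencies of rtt105 rad1 (0.683 per 10000 colonies, adjusted p = 0.00362) and rtt105 tel1 (0.378, adjusted p = 0.0325) higher than in mre11-H125N. So did the colonies of the first library alone (1.38, adjusted p = 0.0179, and 0.651, adjusted p = 0.0236), under which the ratio of rtt105 rad1 to rtt105 became 0.388 and lost its call. Fewer colonies enter there. The whole-segment rule gave rtt105 minus rad27 -13.9 points (adjusted p = 0.0282) for the share inside genes. With 60 bp as the limit, the share of short segments gave -13.8 points for rtt105 rad27 minus rad27 (adjusted p = 0.163), and inside minus between genes turned to -0.712 points in rad27 and 1.90 in rad27 RFA1-t33. Above 3 kb, the share in long genes turned to -2.49 points for rtt105 rad27 and 1.67 points for rad27 RFA1-t33 against rad27. In the first 20% of the gene, coding minus opposite strand turned to -3.33 points in rad27 RFA1-t33. None of these turned differences passed the test in either setting, and the cause was not tested. The other 300 comparisons with an alternative kept their direction and their side of the threshold or stayed within the limits set. They include comparisons that could not change, so their number is no measure of stability. These are near-identical segments counted once, and other colony numbers for genotypes whose colonies stayed the same. Shares in lists of under 20 segments were not tested, by a limit that was chosen.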

Other observations

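Donors of complex insertions, which hold more than 1 donor and are outside the counts above, also lay inside genes. Counted by insertion, 17 insertions of rtt105 had a donor in a gene (0.454 per 10000 colonies, 0.265 to 0.727), 12 of rad27 (0.146, 0.0756 to 0.256), 2 of RFA1-t33, and 1 each of rad27 RFA1-t33, rtt105 rad27 and rtt105 tel1, against 0 in 144320 colonies of mre11-H125N. Against mre11-H125N 0 of 15 genotypes passed Fisher's exact test (two-sided) after Benjamini-Hochberg adjustment, and 1, rtt105, had an unadjusted p under 0.05 (p = 0.00557, adjusted p = 0.0836). Of the 24 donors in rtt105 12 were on the coding strand, and of the 23 in rad27 10 were. A pair in the same gene on opposite strands always gives 1 donor on each strand. These counts therefore cannot be compared with the coding-strand shares of single donors. Where an insertion had 2 donors inside genes, they lay in the same gene on opposite strands in 10 of 11 insertions of rad27, 6 of 7 of rtt105, 2 of 2 of RFA1-t33, 1 of 1 of rtt105 rad27 and 0 of 1 of rtt105 tel1. The rtt105 rad27 pair lay in GAL11, which also held segments of insertions with 1 donor in rad27 and rtt105 rad27, and the rtt105 tel1 pair lay in GAL11 and GSH2.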
